A study of Mus musculus with 8 samples.

Results

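Autophagy genes and a set of lysosomal genes, 41 in number, were followed in mouse embryonic fibroblasts (MEFs) exposed to doxorubicin, a drug that breaks DNA, and in fibroblasts whose Dino gene was altered. The members were taken by name as the core autophagy machinery, the selective autophagy receptor Sqstm1, the DRAM family and the lysosome. All 41 names were found among the 30419 rows of the table, and 38 of them were tested, because they had 10 or more counts in 2 or more libraries. The sparsest member inside that limit was Atg2a, with 10 to 21 counts per library, while Atg16l2 (4 to 18 counts) and Atg4d (0 to 6 counts) lay outside it. Tfeb, a transcription factor that switches on lysosomal genes, was listed at 0 in all 8 libraries. Whether the counting or the library method missed it is not known, so the 0 is not read as absence of its RNA.

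RNA came from early-passage fibroblasts of E13.5 embryos. They were Dino+/+ (WT) or Dino loxP/loxP, which the labels call the Dino mutant, and each genotype received vehicle alone (control) or 0.2 µg/mL doxorubicin for 8 h. Each of these 4 groups had 2 libraries, A and B, with no Cre or further allele named. Dino encodes a p53-induced long noncoding RNA next to Cdkn1a. Its level was not analysed here, so the genotype labels were not checked on the targeted gene.

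Macroautophagy wraps cytoplasm in a growing double membrane, the phagophore, which closes into an autophagosome and fuses with the lysosome. The ULK1 kinase complex starts the process, class III PI3-kinase complexes mark the site with the lipid PI3P, lipid transfer proteins feed the membrane, and ubiquitin-like conjugation machinery attaches Atg8 family proteins to it. In fibroblasts DNA damage acts on this system partly through p53, of which Dram1 and Ulk1 are known targets, and lysosomal genes are partly controlled by Tfeb and its relatives through an E-box sequence, CACGTG.

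Total counts per library ran from 25482805 to 33285171, and levels are given as counts scaled to library size (CPM), in which 3 counts amount to 0.0879 to 0.120 CPM. Libraries A and B scattered more in WT with doxorubicin (chi-square per degree of freedom 18.9) than in the other groups (5.71 to 6.52). This chi-square used counts against library totals over the tested rows, without the scaling factors used for CPM. Those factors were 1.08 and 1.02 for A and B of that group, and their part in the 18.9 was not tested. Nothing in the labels says that A and B are separate cultures or embryos, so p-values may measure technical spread only. Summed over 10 fibroblast markers the libraries held 3314 to 4056 CPM, and 5 epithelial markers held 0.376 to 0.846 CPM. The sum of 5 endothelial markers, of which Tie1 was at 0, was 1.34 to 2.96 CPM in controls and 5.69 to 11.1 CPM with doxorubicin. Tek alone held 0.338 to 1.17 CPM in controls and 4.37 to 9.44 CPM with doxorubicin, so most of the treated sum was 1 gene. Markers that moved with the drug are given beside the lysosomal genes. In bulk RNA, fewer cells of a type and less RNA per cell cannot be told apart.

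To show where E-box sequences lie in members, promoters were read from RefSeq on the mouse build GRCm38.p6, from 250 bases before to 50 bases after each annotated start. Entries matched 34 of the 41 members, with 40 promoters. The sequence TCACGTG, searched on both strands, stood in the promoters of 5 members. They are printed so that the motif can be seen in 4 members that rose in both genotypes, lysosomal and autophagy genes alike, and in Atg7, which did not pass the test. The windows are Lamp1 (chr8:13158911-13159210, plus strand), Ctsd (chr7:142387778-142388077, minus strand), Atg3 (chr16:45158579-45158878, plus strand), Atg14 (chr14:47568385-47568684, minus strand) and Atg7 (chr6:114670846-114671145, plus strand). Capitals mark each CACGTG with a T just before it or an A just after it, which is TCACGTG on one strand or the other.
Lamp1: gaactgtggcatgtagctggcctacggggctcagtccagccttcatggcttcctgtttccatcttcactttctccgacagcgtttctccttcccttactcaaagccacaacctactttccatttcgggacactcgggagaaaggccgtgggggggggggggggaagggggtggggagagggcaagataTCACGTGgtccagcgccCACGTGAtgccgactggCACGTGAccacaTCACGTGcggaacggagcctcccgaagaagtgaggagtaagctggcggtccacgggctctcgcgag
Ctsd: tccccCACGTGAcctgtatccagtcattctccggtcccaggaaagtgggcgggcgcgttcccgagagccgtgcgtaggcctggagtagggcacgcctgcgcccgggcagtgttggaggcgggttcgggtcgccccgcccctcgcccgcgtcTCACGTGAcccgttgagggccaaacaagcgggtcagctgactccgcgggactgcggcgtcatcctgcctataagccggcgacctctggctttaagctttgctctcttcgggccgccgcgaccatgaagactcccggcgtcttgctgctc
Atg3: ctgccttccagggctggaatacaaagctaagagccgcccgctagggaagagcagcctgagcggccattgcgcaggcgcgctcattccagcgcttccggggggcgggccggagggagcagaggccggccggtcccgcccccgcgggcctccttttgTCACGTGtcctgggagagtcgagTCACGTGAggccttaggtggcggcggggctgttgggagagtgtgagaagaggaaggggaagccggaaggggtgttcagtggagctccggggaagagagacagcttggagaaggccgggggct
Atg14: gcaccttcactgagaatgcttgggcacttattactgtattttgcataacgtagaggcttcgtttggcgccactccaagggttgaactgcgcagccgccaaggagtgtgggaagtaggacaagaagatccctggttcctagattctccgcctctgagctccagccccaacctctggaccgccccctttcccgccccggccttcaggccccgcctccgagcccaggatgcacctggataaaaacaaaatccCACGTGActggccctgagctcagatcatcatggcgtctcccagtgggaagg
Atg7: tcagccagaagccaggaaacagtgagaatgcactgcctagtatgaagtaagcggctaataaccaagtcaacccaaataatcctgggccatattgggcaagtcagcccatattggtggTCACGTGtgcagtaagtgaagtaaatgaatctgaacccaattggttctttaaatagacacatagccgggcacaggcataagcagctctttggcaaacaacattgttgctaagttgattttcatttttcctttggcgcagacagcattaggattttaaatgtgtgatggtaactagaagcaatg

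Lamp1 held 4 such E-boxes, Ctsd and Atg3 held 2 each, and Atg14 and Atg7 held 1 each. Over all members, TCACGTG stood in 5 of 40 promoters (12.5%), against 3.77% of 32851 promoters of the same length. The shorter core CACGTG, which every TCACGTG contains, stood in 7 of 40 (17.5%), Atg5 and Ctsl being the others, against 7.15% of all promoters. The longer CLEAR consensus of Tfeb family sites and a p53 site were found in none of the 40, and they stood in 0.326% and 0.0731% of all promoters. The p53 site was taken as 2 exact half-sites with a spacer of 0 to 13 bases. Both motifs are so rare in windows of this length that a lack in 40 tells little. It is not read as absence of p53 sites at Ulk1, Dram1 or other members. No TCACGTG stood in the windows of Ulk1, Dram1, Ulk2, Pik3r4, Atg2b, Wipi1, Wipi2, Atg4a, Map1lc3b, Sqstm1, Dram2, Lamp2 or Laptm4a. These members rose in both genotypes too, and Ulk1 and Dram1 rose most. Whether the motif goes with a rise was not tested. A match describes these windows only, and it is not evidence that a factor binds there.

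With doxorubicin, most of the members tested rose in WT cells. Of the 38 members tested, 24 were higher and 2 were lower in WT with doxorubicin than in WT control (edgeR quasi-likelihood test, Benjamini-Hochberg adjusted p under 0.05, n = 2 libraries per group), and 12 did not pass. The shares were 63.2% higher and 5.26% lower, where 29.3% of all 12296 rows tested were higher and 27.9% were lower. Counts by role and by list below are to be read against the shares of all rows in the same response. The median log2 fold change of the members was 0.43, against 0.01 for all rows. In either direction 26 members were called, where 57.2% of all rows were. Leaving out WT doxorubicin library A gave 24 called members, and leaving out library B gave 23.

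The mutant cells gave the same counts, 24 higher and 2 lower with 12 that did not pass, where 28.3% of all rows were higher, 25.7% lower and 54.0% called in either direction. Their median log2 fold change was 0.39, against 0.01 for all rows. The WT and mutant responses share no library, but 1 fit of all 8 libraries gave both, with a shared estimate of the spread. Of the members, 22 rose in both, while Uvrag and Vmp1 fell in both. The share of all rows called alike in both was not counted, so this overlap has no reference beside it. Atg5 and Ctsl passed in WT cells, Gabarap and Gabarapl2 passed in mutant cells, and 10 members passed in neither response. The plot of responses by role shows these values together.

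**Figure D1:**
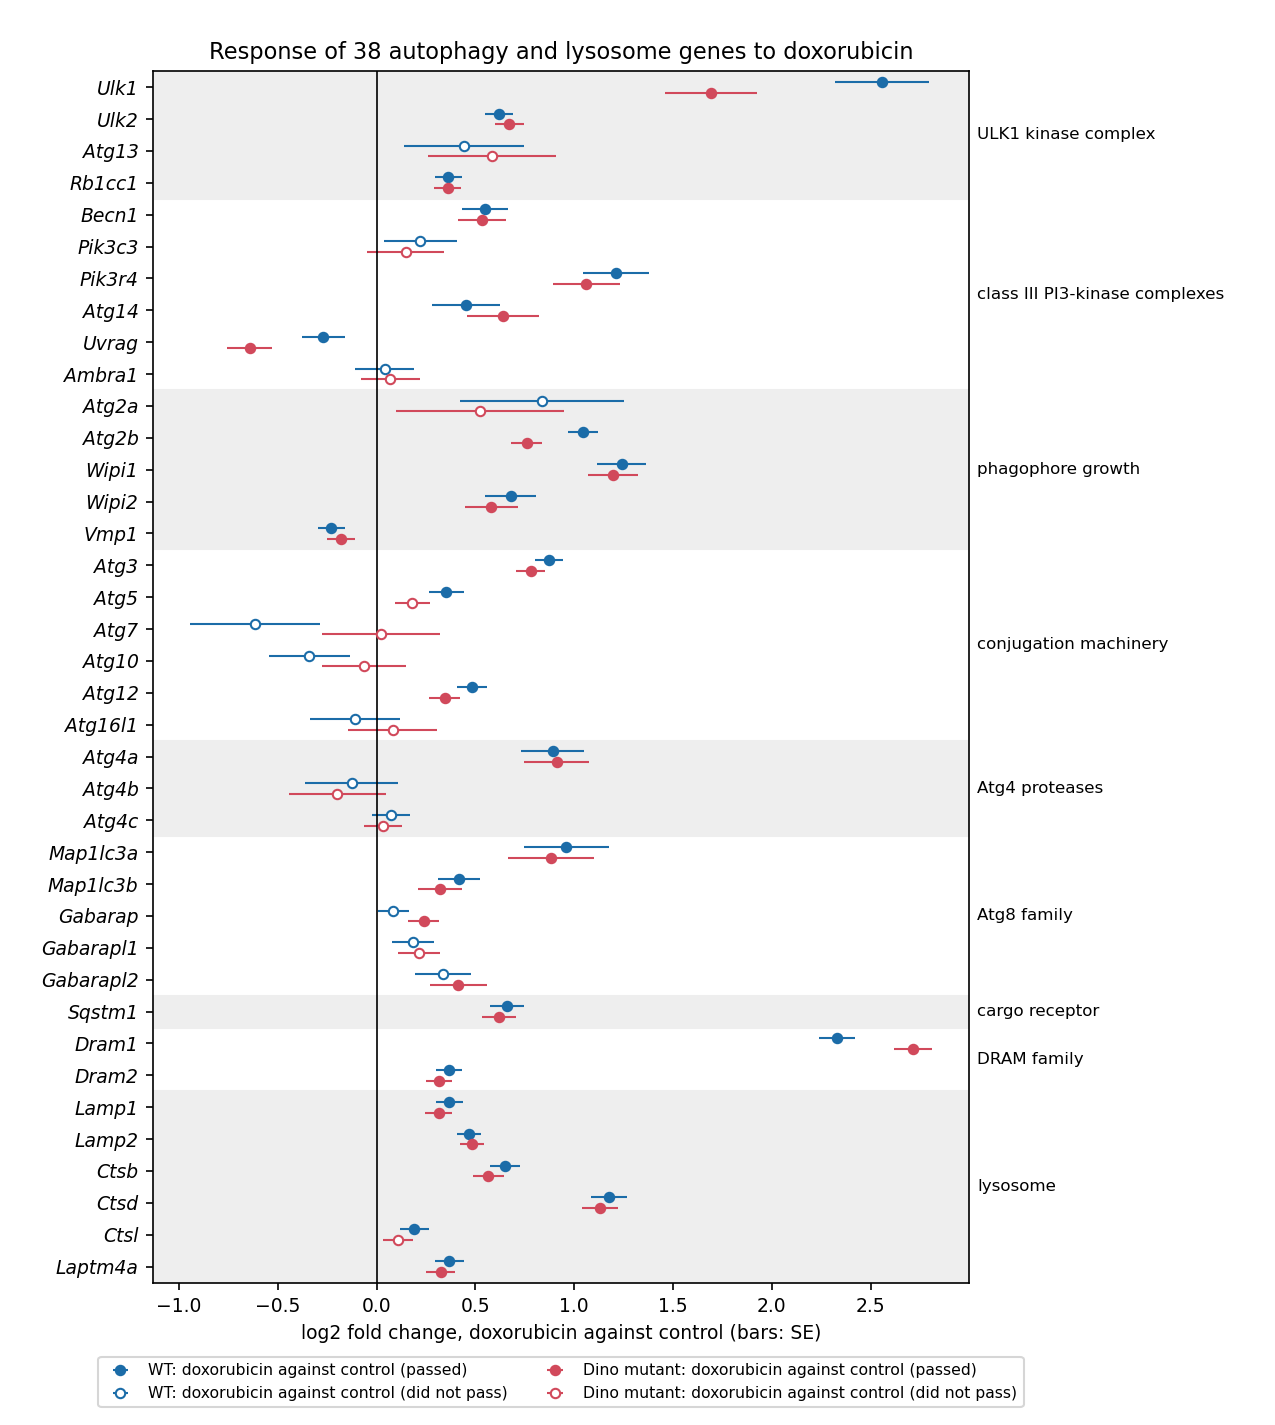
Log2 fold change with doxorubicin (x axis) of the 38 members tested (y axis), ordered by role, in WT (blue) and Dino mutant cells (red). Points are estimates from n = 2 libraries per group, bars are the SE, and filled points passed the test. Ulk1 and Dram1 lie farthest to the right, and Uvrag and Vmp1 are the members with filled points left of 0.

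The ULK1 kinase complex had 3 of its 4 members higher in each genotype (75%), where 29.3% (WT) and 28.3% (mutant) of all rows were higher. Ulk1, the kinase that starts autophagosome formation, stood at 0.928 and 1.26 CPM in WT control, 7.32 and 5.79 in WT with doxorubicin, 2.23 and 1.15 in mutant control, and 5.65 and 5.26 in mutant with doxorubicin. Every treated library was above every control library, and mutant control library A was higher than the other controls. The log2 fold change was 2.56 ± 0.24 (SE) in WT cells, a 5.89-fold rise (adjusted p = 7.23e-09, edgeR quasi-likelihood test), and 1.69 ± 0.23 in mutant cells, a 3.23-fold rise (adjusted p = 2.41e-06). Among the members tested in WT cells it had the largest estimate.

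Ulk2, the related kinase, stood at 64.2 and 62.5 CPM in WT control, 98.7 and 96.0 in WT with doxorubicin, 61.5 and 61.0 in mutant control, and 98.3 and 96.9 in mutant with doxorubicin. Its libraries within a group lay close together and the treated ones did not overlap the controls. Its log2 fold change was 0.62 ± 0.07 in WT cells and 0.67 ± 0.07 in mutant cells (adjusted p = 1.69e-07 and 6.48e-08). Rb1cc1, the scaffold subunit also called FIP200, rose by 0.36 ± 0.07 and 0.36 ± 0.07, and a near-identical pseudogene copy makes its count less certain. Atg13, the adaptor subunit, had estimates of 0.44 ± 0.31 and 0.58 ± 0.32 and did not pass in either genotype.

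Class III PI3-kinase genes split in direction: 3 of 6 members (50%) rose and Uvrag fell in each genotype. Of all rows, 29.3% and 28.3% were higher in WT and mutant cells. Becn1, the Beclin 1 subunit, stood at 9.91 and 11.5 CPM in WT control, 17.3 and 14.1 in WT with doxorubicin, 9.81 and 9.47 in mutant control, and 14.0 and 13.9 in mutant with doxorubicin. The treated libraries were higher in both genotypes without overlap, and WT treated library A was the highest of all. On the log2 scale the change was 0.55 ± 0.12 in WT and 0.53 ± 0.12 in mutant cells (adjusted p = 0.000434 and 0.000901, edgeR quasi-likelihood test).

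Pik3r4 encodes Vps15, the regulatory subunit that holds the lipid kinase. It stood at 2.71 and 3.87 CPM in WT control, 7.19 and 8.23 in WT with doxorubicin, 3.77 and 3.42 in mutant control, and 6.93 and 8.07 in mutant with doxorubicin. Treated and control libraries were well separated in both genotypes. The fold rise was 2.32 in WT cells (log2 1.21 ± 0.17, adjusted p = 2.3e-06) and 2.09 in mutant cells (log2 1.06 ± 0.17, adjusted p = 1.81e-05). Pik3c3, the lipid kinase Vps34 itself, had estimates of 0.22 ± 0.19 and 0.15 ± 0.20, and Ambra1, a Beclin 1 partner, had 0.04 ± 0.15 and 0.07 ± 0.15. Neither passed, so within 1 complex the regulatory subunit rose while the kinase subunit was not called, and the difference between these genes was not tested.

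Atg14 and Uvrag are alternative partners of Becn1: Atg14 directs the complex to autophagosomes and Uvrag to endosomes. Atg14, whose promoter is printed above, stood at 3.93 and 3.84 CPM in WT control, 5.34 and 5.29 in WT with doxorubicin, 2.64 and 3.92 in mutant control, and 5.41 and 4.83 in mutant with doxorubicin. Mutant control library A was lower than the other control libraries, and no treated library overlapped a control. Its log2 fold change was 0.45 ± 0.17 in WT (adjusted p = 0.0296) and 0.64 ± 0.18 in mutant cells (adjusted p = 0.00516). Leaving out any WT library ended the WT call (adjusted p from 0.0717 to 0.121), as did DESeq2 (0.102) and upper-quartile scaling (0.0541). The mutant estimate was 0.38 without mutant control library A (adjusted p = 0.133) and 0.96 without library B.

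Uvrag stood at 14.5 and 13.7 CPM in WT control, 11.5 and 11.9 in WT with doxorubicin, 13.3 and 15.2 in mutant control, and 9.41 and 8.78 in mutant with doxorubicin. All treated libraries were below all control libraries, and the mutant treated pair was the lowest. The gene fell by 0.27 on the log2 scale in WT cells (SE 0.11, adjusted p = 0.0392) and by 0.64 in mutant cells (SE 0.11, adjusted p = 6.13e-05). The WT call was lost without any 1 of the WT or mutant doxorubicin libraries (adjusted p from 0.0501 to 0.159) and under DESeq2, no filter or a filter of 5 CPM (0.0538 to 0.114).

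Among the phagophore growth genes, 3 of 5 (60%) rose and Vmp1 fell in each genotype, where 29.3% and 28.3% of all rows were higher. Atg2b, a lipid transfer protein that feeds the growing membrane, stood at 44.4 and 44.6 CPM in WT control, 94.7 and 88.9 in WT with doxorubicin, 49.3 and 50.1 in mutant control, and 88.4 and 79.9 in mutant with doxorubicin. The mutant controls were slightly above the WT controls, and all treated libraries were far above both. The log2 fold change was 1.04 ± 0.08 in WT (adjusted p = 1.97e-10) and 0.76 ± 0.08 in mutant cells (adjusted p = 3.53e-08), and 1 near-identical pseudogene copy could share its reads. Its paralog Atg2a had wide estimates of 0.84 ± 0.42 and 0.52 ± 0.42 from its few counts and did not pass.

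Wipi1 and Wipi2 bind PI3P on the phagophore, and Wipi2 recruits the conjugation machinery there. Wipi1 stood at 7.72 and 6.86 CPM in WT control, 15.5 and 18.8 in WT with doxorubicin, 7.89 and 8.09 in mutant control, and 16.7 and 19.9 in mutant with doxorubicin. In both genotypes library B was the higher of the treated pair, and the treated pairs lay far above the controls. Its estimate was 1.24 ± 0.13 in WT and 1.19 ± 0.13 in mutant cells (adjusted p = 2.76e-08 and 5.65e-08).

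Wipi2 stood at 5.83 and 5.62 CPM in WT control, 9.15 and 9.17 in WT with doxorubicin, 5.38 and 6.33 in mutant control, and 8.81 and 8.70 in mutant with doxorubicin. The treated libraries agreed closely and did not overlap the controls. It rose by 0.68 ± 0.13 in WT and 0.58 ± 0.13 in mutant cells on the log2 scale (adjusted p = 0.000128 and 0.000881). Vmp1, an endoplasmic reticulum protein needed for phagophore growth, fell by 0.23 in WT and by 0.18 in mutant cells on the log2 scale. Without WT doxorubicin library A the Vmp1 estimate was -0.14 (adjusted p = 0.104). The mutant call was lost without mutant control library B or either mutant doxorubicin library (0.0585 to 0.226), and Vmp1 exons overlap Mir21a on the same strand.

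**Figure D2:**
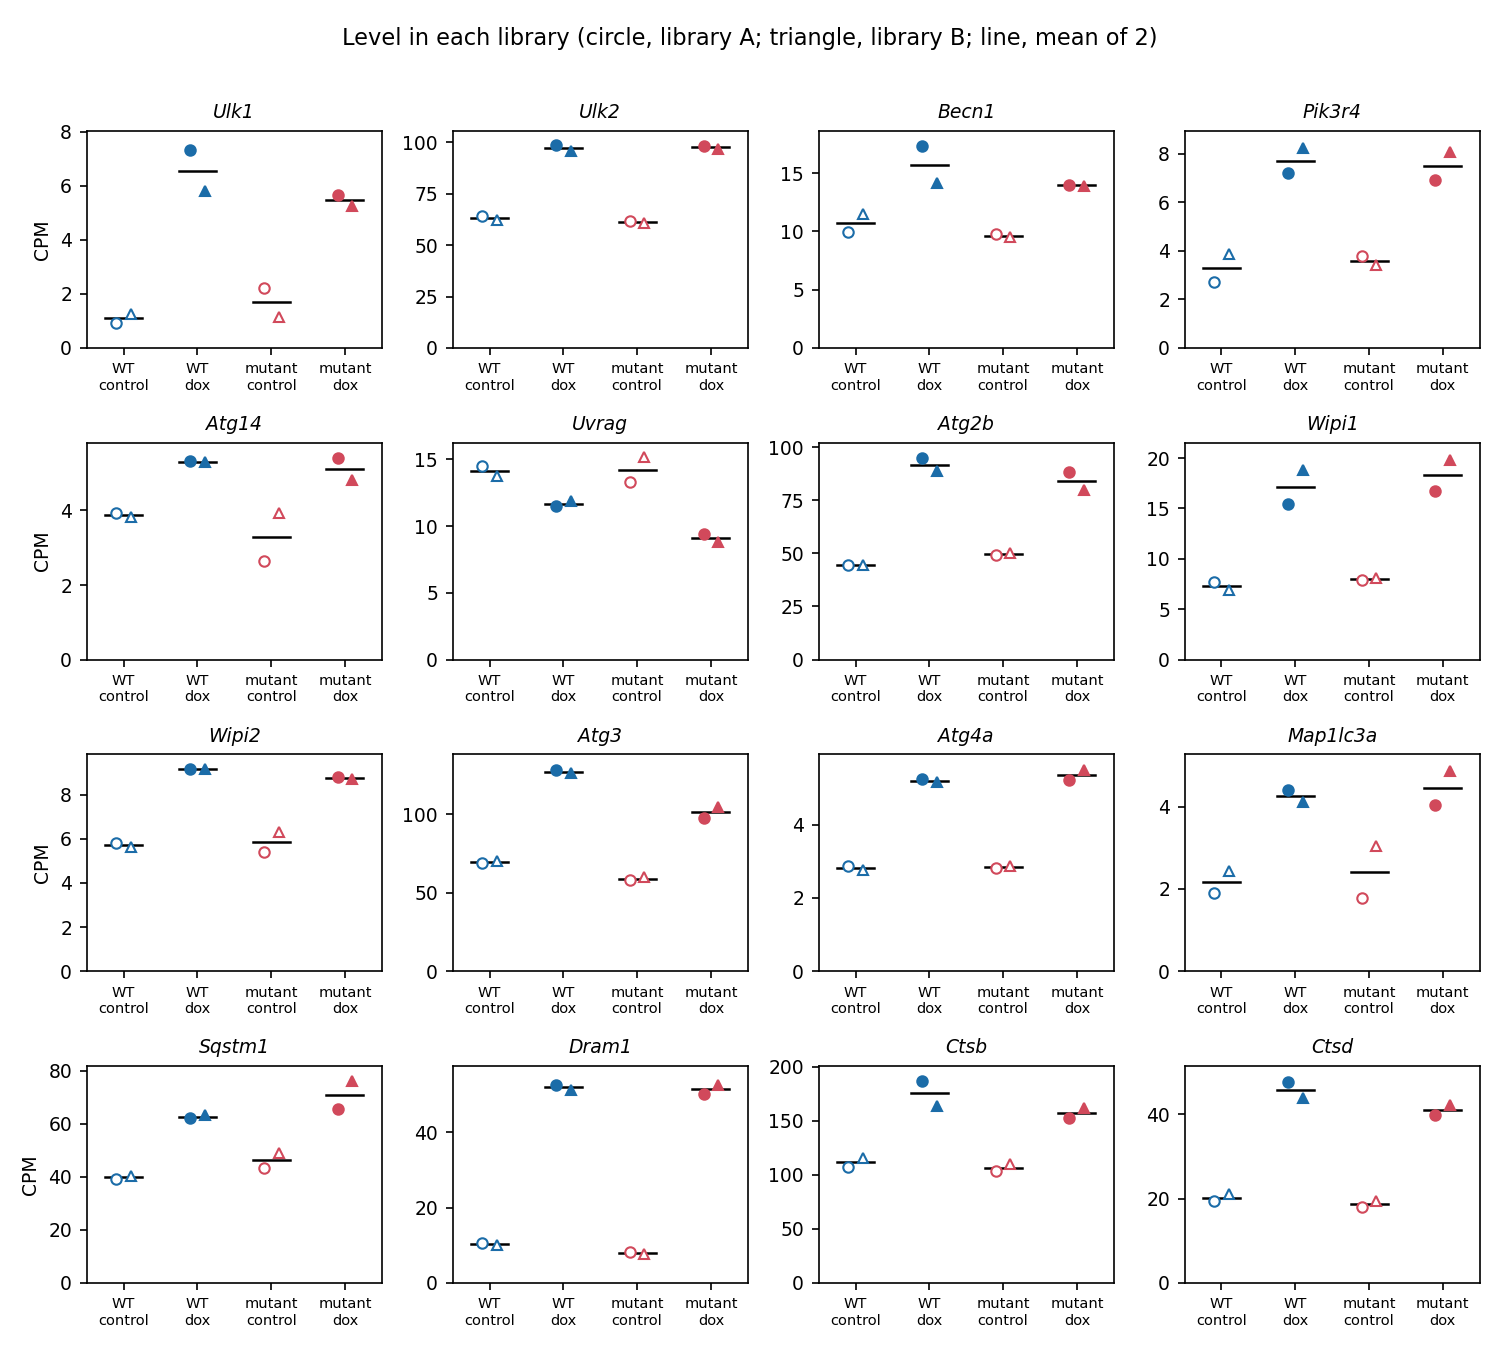
CPM (y axis) in each library of the 16 members that were called in a response and changed by at least 0.5 on the log2 scale there, by group (x axis). Circles are library A, triangles library B, filled symbols had doxorubicin, and lines are the means of 2 libraries. For each of the 16 genes the treated pair of a genotype lies clear of its control pair, with Uvrag the member whose treated pairs lie below. The genes were picked by call and size of change, so this separation largely follows from the choice and is no further support.

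Of the conjugation machinery, 3 of 6 tested members rose in WT (50%) and 2 rose in mutant cells (33.3%). Of all rows, 29.3% and 28.3% were higher. The median change of these members was 0.12 and 0.13 on the log2 scale. Atg3, the E2-like enzyme that passes Atg8 proteins to lipid, stood at 69.0 and 69.9 CPM in WT control, 128 and 126 in WT with doxorubicin, 58.1 and 59.8 in mutant control, and 97.7 and 105 in mutant with doxorubicin. The treated libraries were higher in both genotypes, and the mutant libraries were below their WT counterparts with and without drug. The log2 fold change was 0.87 ± 0.07 in WT (adjusted p = 9.46e-10) and 0.78 ± 0.07 in mutant cells (adjusted p = 8.45e-09). This gene has 2 of the E-boxes printed above.

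Atg12, the ubiquitin-like protein joined to Atg5, rose by 0.48 ± 0.08 and 0.34 ± 0.08 on the log2 scale. Atg5 rose by 0.35 ± 0.09 in WT cells (adjusted p = 0.00166), and its estimate in mutant cells was 0.18 ± 0.09 (adjusted p = 0.0954). The gap between these Atg5 responses was -0.17, with a 95% interval of -0.43 to 0.09.

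Atg7, the E1-like enzyme that activates both ubiquitin-like systems, has an E-box too and stood at 0.965 and 1.38 CPM in WT control, 0.663 and 0.876 in WT with doxorubicin, 1.13 and 1.73 in mutant control, and 1.32 and 1.58 in mutant with doxorubicin. The WT treated libraries were the lowest, while in mutant cells treated and control libraries overlapped. Its estimates were -0.62 ± 0.33 in WT and 0.02 ± 0.30 in mutant cells, and neither passed (adjusted p = 0.115 and 0.955). Atg10, the E2-like enzyme for Atg12, and Atg16l1, the third partner of the Atg5 complex, did not pass either, with estimates from -0.34 to 0.08 across both genotypes.

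Atg4 proteases trim Atg8 proteins before conjugation and release them afterwards. In each genotype 1 of the 3 tested rose (33.3%), near the 29.3% and 28.3% of all rows. Atg4a stood at 2.86 and 2.75 CPM in WT control, 5.24 and 5.16 in WT with doxorubicin, 2.81 and 2.88 in mutant control, and 5.21 and 5.50 in mutant with doxorubicin. Controls of both genotypes were alike and all treated libraries were higher. The fitted change was 0.89 ± 0.16 in WT and 0.91 ± 0.16 in mutant cells (adjusted p = 6.14e-05 and 6.61e-05), and a pseudogene copy of Atg4a could share its reads. Atg4b and Atg4c had estimates between -0.20 and 0.07 and did not pass.

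The Atg8 family, the proteins that coat the membrane and bind cargo receptors, had 2 of 5 members higher in WT (40%) and 4 of 5 in mutant cells (80%). Of all rows, 29.3% and 28.3% were higher. Map1lc3a, which encodes LC3A, stood at 1.89 and 2.43 CPM in WT control, 4.41 and 4.10 in WT with doxorubicin, 1.78 and 3.04 in mutant control, and 4.04 and 4.87 in mutant with doxorubicin. Treated and control libraries did not overlap within a genotype, but the mutant controls were far apart. The log2 fold change was 0.96 ± 0.22 in WT (adjusted p = 0.000657) and 0.88 ± 0.22 in mutant cells (adjusted p = 0.00168). Without mutant control library A the mutant estimate was 0.55 (adjusted p = 0.0619) and without library B it was 1.33.

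Map1lc3b, the LC3B gene behind the usual autophagosome marker, rose by 0.42 ± 0.11 in WT (adjusted p = 0.00235) and 0.32 ± 0.11 in mutant cells (adjusted p = 0.0178). It has 4 near-identical pseudogene copies. Its mutant change did not pass when library A of the mutant controls (adjusted p = 0.158) or of the treated mutant cells (0.0778) was dropped, by DESeq2 (0.0584) and with upper-quartile scaling (0.0533). Gabarap had 0.08 ± 0.08 in WT and rose by 0.24 ± 0.08 in mutant cells, which did not pass when library A of the mutant controls (0.141) or library B of the treated mutant cells (0.0612) was dropped, or with upper-quartile scaling (0.0673). Gabarapl2 missed the threshold in WT at 0.33 ± 0.14 (adjusted p = 0.0501) and passed in mutant cells at 0.41 ± 0.14 (adjusted p = 0.0195). Without mutant doxorubicin library B the latter was 0.23 (adjusted p = 0.272), and the call was also lost without either mutant control library (0.105 and 0.0518) and by DESeq2 (0.171). The WT change passed in 9 of 17 alternatives, among them DESeq2 size factors, no filter and the WT libraries alone, and 3 near-identical pseudogene copies could share the reads. For Gabarap and Gabarapl2 the mutant minus WT difference was 0.15 (95% interval -0.08 to 0.38) and 0.08 (-0.34 to 0.50), so passing in mutant cells alone is not a shown difference between genotypes. Gabarapl1 did not pass in either, at 0.18 ± 0.11 and 0.21 ± 0.11.

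Sqstm1, also called p62, carries ubiquitinated cargo to Atg8 proteins. It stood at 39.1 and 40.4 CPM in WT control, 62.2 and 63.3 in WT with doxorubicin, 43.4 and 48.9 in mutant control, and 65.7 and 76.1 in mutant with doxorubicin. The treated libraries were above all controls, and mutant treated library B was the highest. On the log2 scale it rose by 0.66 ± 0.09 in WT and 0.62 ± 0.09 in mutant cells (adjusted p = 1.19e-06 and 2.94e-06, edgeR quasi-likelihood test).

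Dram1 encodes a lysosomal membrane protein known as a p53 target that promotes autophagy. It stood at 10.6 and 10.1 CPM in WT control, 52.7 and 51.4 in WT with doxorubicin, 8.09 and 7.58 in mutant control, and 50.2 and 52.7 in mutant with doxorubicin. The 4 treated libraries were alike, and the mutant controls were below the WT controls. The rise was 5.03-fold in WT cells (log2 2.33 ± 0.09, adjusted p = 5.55e-15) and 6.57-fold in mutant cells (log2 2.71 ± 0.10, adjusted p = 1.11e-15). Its relative Dram2 also rose, by 0.37 ± 0.07 and 0.31 ± 0.07 on the log2 scale.

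All 6 lysosomal members rose in WT cells and 5 (83.3%) rose in mutant cells, where 29.3% and 28.3% of all rows were higher. Ctsd, the aspartic protease cathepsin D, stood at 19.3 and 21.1 CPM in WT control, 47.6 and 43.9 in WT with doxorubicin, 18.1 and 19.4 in mutant control, and 39.8 and 42.2 in mutant with doxorubicin. The treated libraries lay above all controls by more than the gap between any pair of libraries of 1 group. The rise was 2.26-fold in WT (log2 1.18 ± 0.09, adjusted p = 2.78e-10) and 2.19-fold in mutant cells (log2 1.13 ± 0.09, adjusted p = 8.6e-10). Its promoter carries 2 of the E-boxes printed above, and a gene model on the same strand overlaps its exons.

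Ctsb, the cysteine protease cathepsin B, stood at 108 and 116 CPM in WT control, 187 and 164 in WT with doxorubicin, 103 and 109.6 in mutant control, and 153 and 162 in mutant with doxorubicin. Treated libraries were higher without overlap, and the WT treated pair was the more scattered. The log2 fold change was 0.65 ± 0.08 and 0.57 ± 0.08 (adjusted p = 2.66e-07 and 2.31e-06). The membrane proteins rose as well: Lamp1, with 4 E-boxes, by 0.37 ± 0.07 and 0.31 ± 0.07, Lamp2 by 0.47 ± 0.06 and 0.48 ± 0.06, and Laptm4a by 0.37 ± 0.07 and 0.32 ± 0.07 in WT and mutant cells.

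Ctsl, the cysteine protease cathepsin L, stood at 63.2 and 64.7 CPM in WT control, 73.4 and 72.6 in WT with doxorubicin, 53.1 and 53.9 in mutant control, and 55.3 and 60.1 in mutant with doxorubicin. The WT treated pair was the highest and the mutant controls were the lowest, and the mutant libraries were below all WT libraries. The gene rose by 0.19 ± 0.07 in WT cells (adjusted p = 0.0350), and its mutant estimate was 0.11 ± 0.08 (adjusted p = 0.244). Leaving out any WT library ended the WT call (adjusted p from 0.0569 to 0.135), as did upper-quartile scaling (0.13, adjusted p = 0.131), no filter (0.0627) and the WT libraries alone (0.0651). A gene model on the same strand overlaps its exons.

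Macrophages are rich in lysosomes, and their markers moved alongside. Summed over 14 macrophage and leukocyte markers, the libraries held 41.9 to 42.9 CPM in WT control, 59.2 to 59.4 in WT with doxorubicin, 52.8 to 54.7 in mutant control and 63.5 to 68.9 in mutant with doxorubicin. Of the 11 markers tested, 7 (63.6%) were higher in the WT response and 1 (9.09%) in the mutant response, where 29.3% and 28.3% of all rows were. All 11 estimates were above 0 in both responses, with medians of 0.39 and 0.32, and edgeR called 0 of them in the difference between responses (0 at an unadjusted p under 0.05). Cd14, a receptor for bacterial lipopolysaccharide, was the marker that rose in both. None of the 14 was at 0 in all libraries, and Ctss, Cd68 and Laptm5 are themselves lysosomal. Other markers moved too. The endothelial gene Tek rose 7.52-fold in WT and 10.5-fold in mutant cells, the only 1 called of 3 endothelial markers tested. The fibroblast receptor genes Pdgfra and Pdgfrb fell by 1.90 and 1.49 in WT and by 1.80 and 1.79 in mutant cells on the log2 scale. Dcn, another fibroblast marker, rose by 0.50 and 0.47. In WT 3 of 10 fibroblast markers were higher and 4 lower, where 29.3% and 27.9% of all rows were. In mutant cells 1 was higher and 4 lower, where 28.3% and 25.7% of all rows were. The part of these shifts in the results for the members was not tested.

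No difference between the genotypes in a member's response passed the test of that difference. The count was 0 of 38 (edgeR quasi-likelihood test), where 0.0895% of all rows were called (0.0407% above 0 and 0.0488% below 0), and DESeq2 also called 0. At an unadjusted p under 0.05 there were 4 members, Ulk1, Atg2b, Uvrag and Dram1, named here for that reason. The share of all rows under that unadjusted limit was not counted, so these 4 have no reference beside them. The mutant response minus the WT response was -0.87 for Ulk1 (95% interval -1.59 to -0.14, adjusted p = 0.742) and -0.28 for Atg2b (-0.51 to -0.06, adjusted p = 0.705). It was -0.37 for Uvrag (-0.70 to -0.04, adjusted p = 0.772) and 0.38 for Dram1 (0.11 to 0.66, adjusted p = 0.575). These intervals are for single genes, without correction.

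For other members the intervals give how far the responses may lie apart. The difference was -0.04 for Ctsd, with a 95% interval of -0.31 to 0.22, and -0.04 for Wipi1, with -0.42 to 0.33. For Pik3r4 it was -0.15 (-0.65 to 0.35) and for Atg3 -0.09 (-0.30 to 0.12). It was 0.02 for Lamp2 (-0.17 to 0.20) and 0.05 for Ulk2 (-0.16 to 0.26). The sparse members were bounded less tightly, as Atg7 shows with 0.64 (-0.28 to 1.56). The median difference over the 38 members was -0.04.

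Between genotypes without drug, 2 members were lower in mutant than in WT cells and none was higher, where 3.17% of all rows were lower, 2.76% were higher and 5.93% were called in all. Dram1 had mutant controls below both WT controls, with a log2 difference of -0.40 ± 0.11 (SE, adjusted p = 0.0235, edgeR quasi-likelihood test), and the gap with doxorubicin was -0.02 ± 0.08. Ctsl had a difference of -0.26 ± 0.08 (adjusted p = 0.0474). At an unadjusted p under 0.05 there were 6 members, and the share of all rows under that limit was not counted. No excess among the members is read from the 6. The Dram1 call was lost without any 1 of the 4 control libraries (adjusted p from 0.0874 to 0.223), and the Ctsl call without any of these (0.112 to 0.306). Ctsl was also lost without either mutant doxorubicin library and under other scalings, no filter or DESeq2 (0.0535 to 0.0808).

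With doxorubicin, 2 members were lower in mutant cells, where 3.74% of all rows were lower, 3.93% were higher and 7.67% were called in all. Without correction 8 members had an unadjusted p under 0.05. That count has no share of all rows beside it either, and no excess is read from it. Atg3 differed by -0.33 ± 0.07 (adjusted p = 0.00451), and its difference without drug was -0.24 ± 0.07 (adjusted p = 0.0622). Ctsl differed by -0.34 ± 0.08 (adjusted p = 0.00609). Without mutant doxorubicin library A both calls were lost (adjusted p = 0.0885 for Atg3 and 0.112 for Ctsl), with differences of -0.28 each. These comparisons share libraries with the responses and with each other, so they do not count as separate evidence.

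The genotype groups also differed in sex-linked RNA. Xist, the X-inactivation RNA of female cells, was at 0.276 ± 0.0234 CPM (SD, n = 2) in WT control and 233 ± 29.5 in mutant control, and at 0.304 ± 0.102 and 523 ± 74.6 with doxorubicin. The Y-linked genes Uty, Kdm5d, Ddx3y and Eif2s3y stood in mutant cells at 11.8% to 15.5% of their WT level. Sex and genotype cannot be told apart in these libraries. The X-linked members Atg4a and Lamp2 had differences of 0.02 and -0.001 without drug and 0.04 and 0.01 with it, and neither was called.

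**Figure D3:**
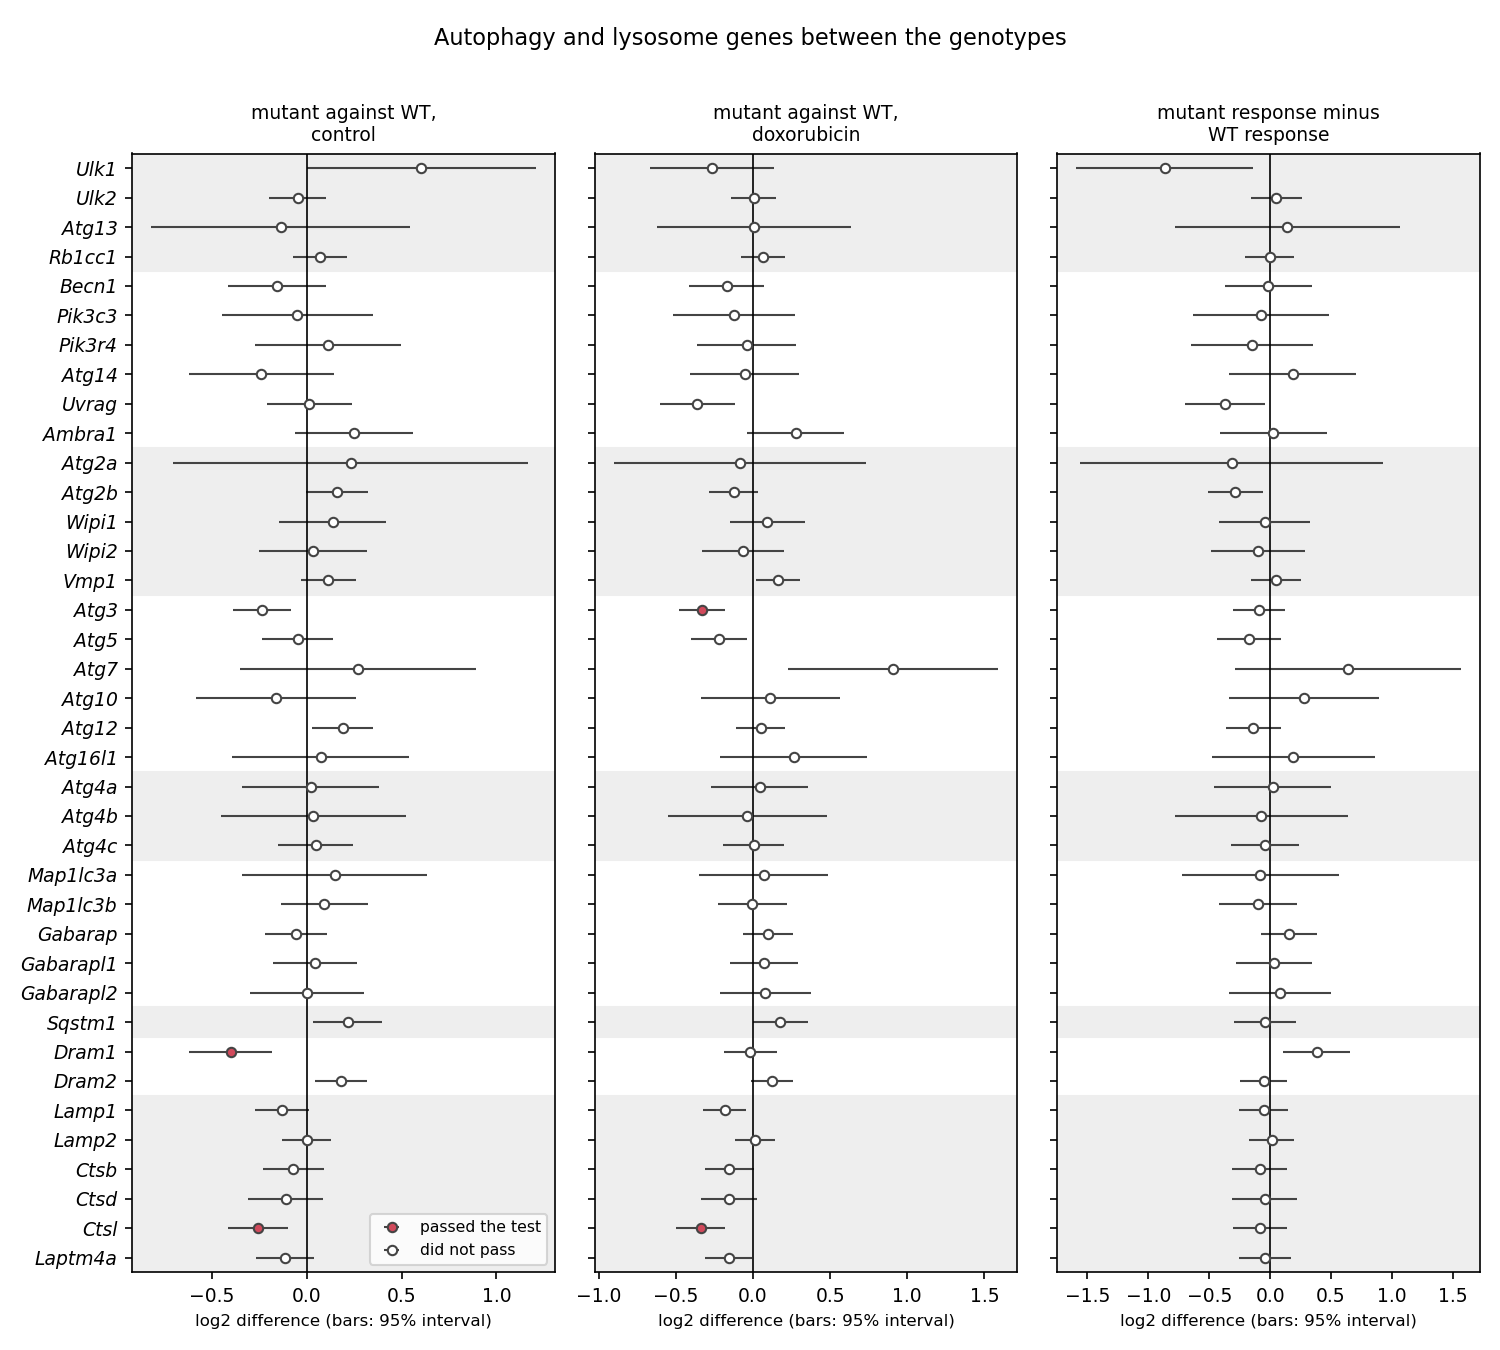
Log2 differences (x axis) between mutant and WT cells without drug (left), with doxorubicin (middle) and between the responses (right) for the 38 members tested (y axis, shaded by role). Points are estimates from n = 2 libraries per group and bars their 95% intervals, and filled points passed the test. Dram1 and Ctsl are filled on the left, Atg3 and Ctsl in the middle and none on the right.

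Other genes of the pathway, 122 from 6 lists, were set beside the members, and 119 of them were tested. In WT cells 58 were higher and 10 lower (48.7% and 8.40%, against 29.3% and 27.9% of all rows), with a median of 0.37 on the log2 scale. In mutant cells 53 were higher and 9 lower (44.5% and 7.56%, against 28.3% and 25.7%), with a median of 0.33. In either direction 57.1% and 52.1% were called, near the 57.2% and 54.0% of all rows. No gene of these lists was called in the difference between responses by edgeR, and DESeq2 called 0 as well. At an unadjusted p under 0.05 there were 9, a count without the share of all rows beside it.

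The vacuolar proton pump, which acidifies the lysosome, had 11 of 16 tested subunit genes higher and none lower in WT cells. In mutant cells 11 were higher and 1 lower. The higher genes were 68.8% in each, where 29.3% and 28.3% of all rows were higher. The 4 largest WT changes were in the cytosolic V1 part: Atp6v1d (0.88 ± 0.07), Atp6v1a (0.85 ± 0.07), Atp6v1b2 (0.82 ± 0.16) and Atp6v1e1 (0.80 ± 0.16) on the log2 scale. The same genes rose in mutant cells by 0.81, 0.90, 0.81 and 0.78. Atp6v0c, a gene of the membrane ring, was listed at 0 in all libraries, which is likewise not read as absence.

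Lysosomal hydrolases had 14 of 35 higher (40%) and 2 lower in WT cells, and 13 higher (37.1%) and 1 lower in mutant cells. Of all rows, 29.3% and 28.3% were higher. In either direction 45.7% and 40% of the hydrolases were called, below the 57.2% and 54.0% of all rows. Ctsf, cathepsin F, rose most in WT, by 2.96 ± 0.31, from 8 and 13 counts in the control libraries to 87 and 81. Man2b1, an alpha-mannosidase, rose by 1.79 ± 0.18, Tpp1, a tripeptidyl peptidase, by 1.57 ± 0.07, and Ctsh, cathepsin H, by 1.15 ± 0.17. All 4 were also higher in mutant cells. Lysosomal membrane and sorting genes had 10 of 19 higher and 2 lower in WT, led by Laptm4b (2.27 ± 0.10), Gnptg of the mannose 6-phosphate tagging enzyme (1.31 ± 0.21), the sorting receptor Scarb2 (1.02 ± 0.30) and the cystine exporter Ctns (0.76 ± 0.17). In mutant cells 8 of these 19 were higher (42.1%) and 3 lower, and the 10 higher in WT were 52.6%.

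Selective autophagy receptors had 9 of 12 higher (75%) and 2 lower in WT, and 8 higher (66.7%) and 1 lower in mutant cells. Of all rows, 29.3% and 28.3% were higher. Pink1, the kinase that marks damaged mitochondria, rose by 1.15 ± 0.17 in WT and 1.68 ± 0.17 in mutant cells. The receptors Optn (0.82 ± 0.16), Calcoco1 (0.78 ± 0.23) and Bnip3l (0.73 ± 0.08) rose in WT and were also called higher in mutant cells. Other autophagy genes had 8 of 18 higher (44.4%) and 1 lower in WT, and 8 higher (44.4%) and none lower in mutant cells. Ei24, an endoplasmic reticulum protein also known as a p53 target, rose by 1.75 ± 0.07 and 1.68 ± 0.07, and Zfyve1, which marks sites of phagophore formation, by 1.13 ± 0.28 and 1.32 ± 0.30. Tecpr1 was called in WT at 1.77 ± 0.61 from only 3 to 13 counts. Atg9b had 1 and 1 counts in WT control against 42 and 16 with doxorubicin, and 0 and 0 in mutant control against 24 and 9, so no fold is given for it.

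Among relatives of Tfeb and the nutrient sensing genes of the lysosome, 6 of 19 were higher (31.6%) and 3 lower in WT, and 5 higher (26.3%) and 3 lower in mutant cells. These shares of higher genes are near those of all rows, 29.3% and 28.3%. Of the relatives, Tfe3 had 0.27 ± 0.14 in WT and 0.35 ± 0.15 in mutant cells and passed in neither. Mitf had 0.36 ± 0.17 in WT, which did not pass, and rose by 0.80 ± 0.18 in mutant cells. The mutant minus WT difference for Mitf was 0.44 (95% interval -0.07 to 0.95) and was not called. Flcn, the folliculin subunit that restrains Tfeb family factors, rose by 1.52 ± 0.08 in WT and 1.22 ± 0.08 in mutant cells, and Rragd, a Rag GTPase, by 1.40 ± 0.13 and 1.60 ± 0.13. Tsc2, an inhibitor of mTORC1 signalling, rose by 0.74 ± 0.17 in WT cells and had 0.24 ± 0.18 in mutant cells, where it did not pass. Fnip2, a folliculin partner, fell by 0.64 and 0.50 on the log2 scale.

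Between genotypes 2 of the 119 genes (1.68%) were called without drug and 2 with it, where 5.93% and 7.67% of all rows were. Without drug Ei24 and the cathepsin gene Ctss were higher in mutant cells, by 0.25 ± 0.07 and 0.49 ± 0.14, and Ctss is among the leukocyte markers above. With doxorubicin the thioesterase gene Ppt1 was higher by 0.31 ± 0.08 and Ctsh had a difference of -0.63 ± 0.17. TCACGTG stood in 25 of the 117 promoters matched for these lists (21.4%). The plot of pathway lists places every tested gene beside the spread of all rows.

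**Figure D4:**
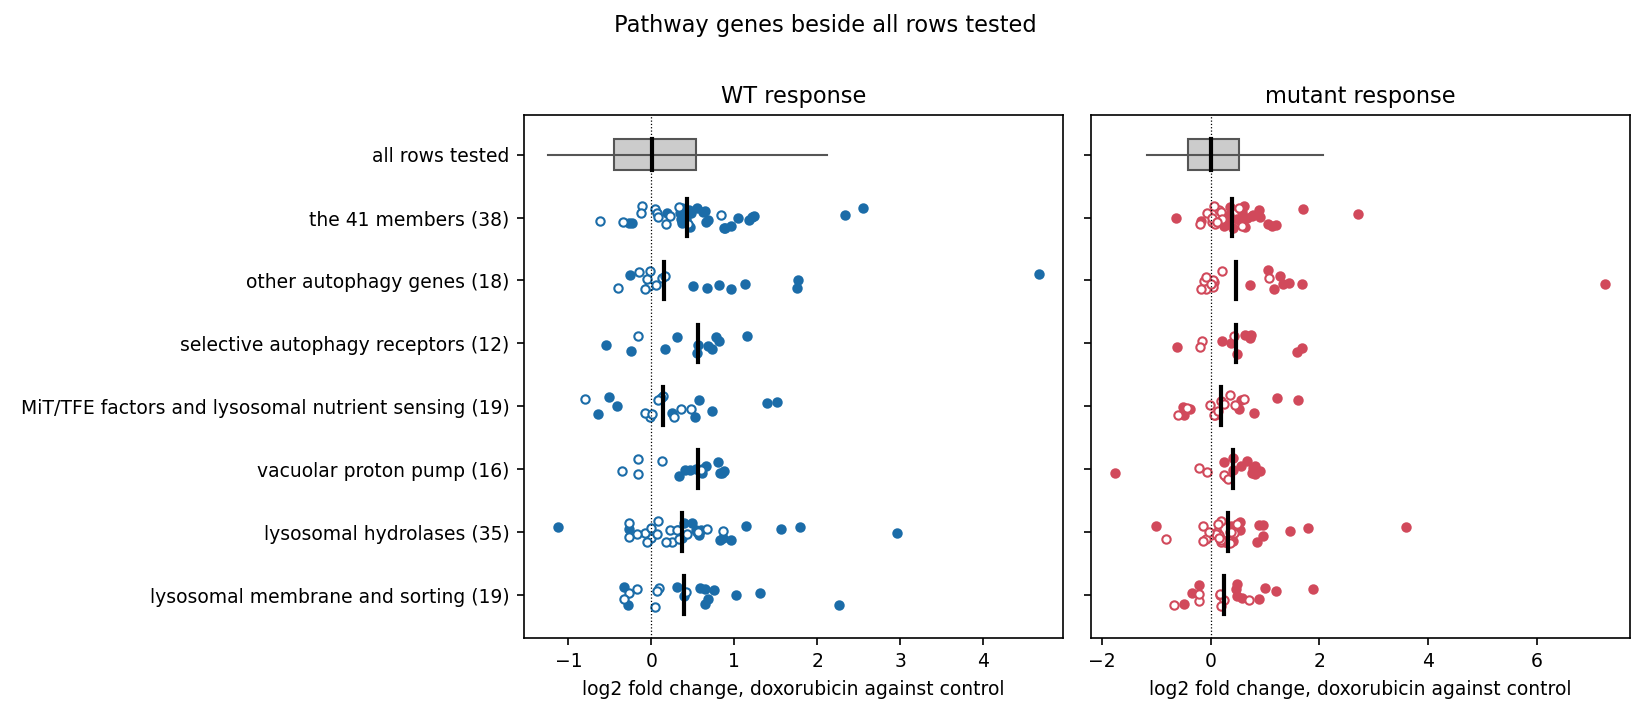
Log2 fold change with doxorubicin (x axis) of the members and of 6 lists of other pathway genes (rows, with the number tested), in WT (left, blue) and mutant cells (right, red). Points are genes, filled where the test was passed, black lines are medians, and the grey box with its whiskers gives the quartiles and the 5th and 95th percentiles of all 12296 rows. The medians are 0.43 and 0.39 for the members and 0.01 for all rows in both panels, and the far right point is Atg9b, whose fitted value rests on 0 or 1 control counts per library.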

How the data were processed

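RNA of 8 libraries was measured, and the authors deposited raw counts per gene name, with no normalization. Reads were aligned with Bowtie2 to mm9 and counted with HTSeq, per the submitters' processing notes. The annotation, the strand setting and the handling of reads that match several places are not given in the sources used here. The labels name both an exome-capture kit and 3' end sequencing, which was not resolved. Reads of genes that overlap or have near-identical copies are therefore uncertain: by GENCODE models on GRCm38, 5 members have pseudogene copies (at least 95% identity over 300 bases or more), 3 overlap another gene's exons on the same strand and 14 on the other strand. Those 14 are Rb1cc1, Becn1, Atg14, Uvrag, Atg2b, Atg16l2, Atg4d, Map1lc3b, Gabarapl1, Sqstm1, Dram2, Lamp1, Ctsb and Ctsl. With the strand setting unknown, their counts are uncertain too.

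The members, the 6 pathway lists, the markers and the rules were chosen with earlier results of these data known. Rows with 10 or more counts in 2 or more libraries were tested (12296 of 30419). TMM factors scaled the libraries, CPM are counts over scaled library size, and edgeR 4.0.16 (limma 3.58.1, R 4.3.3) fitted all 8 libraries by quasi-likelihood, each group having 1 coefficient (4 residual degrees of freedom, biological coefficient of variation 0.0636). The tests were two-sided, the Benjamini-Hochberg adjustment ran over all rows tested, and an adjusted p under 0.05 made a call. The SE is the log2 fold change divided by the square root of its F statistic. The 5 comparisons were each genotype's response, their difference, and mutant against WT without and with drug. The scripts were tested on simulated data.

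Members are given per library where called with a log2 change of at least 0.5 in a response, or where called between genotypes. That their libraries do not overlap between the groups compared largely follows from this choice, and it is not counted as further support. Up to 4 called genes per list, those with the largest WT change, are named, with any called between genotypes added after their values were seen. Mitf and Tfe3, the relatives of Tfeb in the lists, were also added after their values were seen. Vmp1, Atg7, and the 4 members with a small unadjusted p for the difference were picked out in the same way. Intervals and the 3-count floor cover counting error and library spread only. Alternatives were DESeq2 1.42.0, other scalings, filters and thresholds, the library letter as a block, only the groups compared, and leaving out each library. Some items may not be reported here.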

Additional observations from a re-analysis of the deposited data

How the results depend on the processing

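Of 56 member calls, 14 were lost in at least 1 alternative that tested them, 42 were kept in all that did, and none of 950 alternative values reversed. The filter of 5 CPM leaves out Map1lc3a, so neither of its calls has a value there. The differences between libraries A and B were hardly correlated between groups (between -0.02 and 0.03). This does not tell whether libraries of 1 letter shared a culture or batch. With the letter as a replicate block 27 members were called in the WT response and 26 in the mutant response, and 0, 2 and 2 in the difference and the genotype comparisons. No paired reading is drawn from it. Members lower in the WT response were 1 by DESeq2, without a filter and with 5 CPM in 2 libraries, and 0 to 2 when a library was left out; in the mutant response they were 1 to 2. Members called, all lower, between controls were 1 with DESeq2 size factors, upper-quartile factors, DESeq2 and no filter, and 0 to 3 on leaving out a library. With doxorubicin they were 0 to 3 (higher 0 to 1, lower 0 to 2). Other pathway genes called between controls were 1 by DESeq2, 4 at adjusted p under 0.10 and 0 to 3 on leaving out a library, and with doxorubicin 1 by DESeq2, 5 without a filter, 7 at 0.10 and 0 to 5. Rows called in the difference were 48 without a filter, 5 at 5 CPM, 20 at 0.10 and 0 to 49 on leaving out a library; between genotypes they were 390 to 838 without drug and 516 to 1206 with it. Members called in the responses were 23 to 26 in WT and 21 to 26 in mutant cells on leaving out a library. The cause of these shifts was not tested. Upper-quartile scaling moved the median of all rows by under 0.1, to -0.05 in both responses.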
